A study of Mus musculus with 8 samples.

Results

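The genes described here are 40 genes of DNA replication and mitosis, a sample of the machinery that copies and divides the chromosomes of cycling cells. They were given by name, 22 for replication and 18 for mitosis, and each was represented by the probe with the highest mean signal over all 8 arrays. All 40 were found on the array, among 19331 genes and unnamed probes tested (called features here), and all 40 passed the filter on dim probes, being well above background on all 8 arrays and saturated on none. RNA came from whole mouse pancreatic epithelium, dorsal and ventral together, dissected by hand at e15.5 (e, embryonic day). The Sox9 mutant group was Sox9 fl/fl; Rosa26-CreER and the wild-type group was Rosa26-CreER without the floxed alleles, so both genotypes carried the recombinase, which tamoxifen activates. Tamoxifen was injected into the dams of both at e12.5, at 6 mg/40 g, which is 3 days before dissection. The floxed line was of mixed origin (FVB/N, C57Bl/6J and CD1) and the recombinase line was C57Bl/6J. Each genotype had 4 RNA samples, and each sample pooled 4 pancreata, so that every p-value below rests on the spread among pools, and single embryos were not measured. Rosa26 is active in nearly all cell types, so recombination was not limited to epithelial cells.

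DNA replication begins with licensing, in which CDC6 and CDT1 load the ring-shaped MCM2 to MCM7 helicase onto origins. Polymerases, the sliding clamp PCNA with its RFC loader, and the enzymes that finish the lagging strand then copy the DNA, while ribonucleotide reductase and thymidylate synthase supply the nucleotides. Genes of this group are typical targets of the E2F factors, which the retinoblastoma protein RB1 restrains. Mitotic genes, such as the B-type cyclins, PLK1, the Aurora kinases and CDC20, peak later in the cycle, and their promoters commonly carry CCAAT boxes and a cell cycle homology region, or CHR, through which the DREAM and MYB-MuvB complexes act together with FOXM1. In the pancreas of this stage, SOX9-positive progenitors of the epithelial trunk divide, whereas endocrine precursors leave the cell cycle as they form. The comparison asks which of these genes differed in RNA level after Sox9 was deleted in the course of the secondary transition, the period when most endocrine and acinar cells arise.

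The classes differed in the letters of their promoters, which are shown here because both programmes are known to be driven through different sites. In the RefSeq table of assembly GRCm38.p6, 35 of the 40 genes had a promoter entry, all but Aurkb, Ccna2, Foxm1, Mcm4 and Pole. The first entry of each gene was searched over the 250 bases before its start, on both strands. Any of the E2F sites TTTCCCGC, TTTCGCGC, TTTGCCGC or TTTGGCGC was present in 6 of 20 replication promoters and in 0 of 15 mitosis promoters, against 1.91% of 27025 genes. The CHR letters TTTGAA or TTCGAA were present in 4 of 20 replication and 7 of 15 mitosis promoters, against 17.4% of all genes. CCAAT was present in 13 of 20 and 13 of 15, against 34.5%, and CHR and CCAAT together in 3 of 20 and 7 of 15, against 6.21%. A match is a description of the letters and not evidence of a bound site. The 150 bases before the start of 4 genes follow, 5′ to 3′ on the gene's strand in GRCm38.p6, with E2F, CHR and CCAAT letters of either strand in capitals. Mcm3 and Mcm6 are the helicase genes with the largest differences between genotypes, Cdc20 is the mitosis gene with the largest difference, and Top2a is a mitosis gene whose mean differed by 0.06 on the log2 scale.
Mcm3, chr1:20820313-20820462, minus strand: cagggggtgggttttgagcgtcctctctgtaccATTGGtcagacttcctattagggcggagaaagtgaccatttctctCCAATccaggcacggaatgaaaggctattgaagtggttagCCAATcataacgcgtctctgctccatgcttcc
Mcm6, chr1:128359706-128359855, minus strand: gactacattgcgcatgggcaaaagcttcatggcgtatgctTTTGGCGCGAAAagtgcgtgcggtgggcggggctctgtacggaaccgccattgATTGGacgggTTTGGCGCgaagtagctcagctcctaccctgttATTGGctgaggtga
Cdc20, chr4:118437344-118437493, minus strand: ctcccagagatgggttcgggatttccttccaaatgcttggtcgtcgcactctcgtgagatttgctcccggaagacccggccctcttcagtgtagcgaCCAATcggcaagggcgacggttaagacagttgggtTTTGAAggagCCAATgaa
Top2a, chr11:99024190-99024339, minus strand: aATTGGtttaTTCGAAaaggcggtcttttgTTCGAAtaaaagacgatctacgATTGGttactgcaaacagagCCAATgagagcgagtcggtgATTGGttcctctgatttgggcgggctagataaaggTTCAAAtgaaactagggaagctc
The Mcm3 window held 3 CCAAT boxes and no E2F letters. The Mcm6 window held 3 E2F matches, of which 1 pair overlaps, and 2 CCAAT boxes. The Cdc20 window held 1 CHR and 2 CCAAT boxes, and the Top2a window 3 CHR and 4 CCAAT matches.

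All levels below are log2 processed signals after the array's 75th percentile was subtracted, and differences are mutant minus wild-type on the same log2 scale. Signal was alike on 7 arrays, with a median spot signal of 219 to 272 and 69.0% to 73.4% of probes above background, whereas mutant replicate 2 had a median of 756, a negative control signal of 282 against 69.8 to 87.4 elsewhere, and 85.9% of probes above background. Its median correlation with the other arrays of its group was 0.9233, against 0.9935 to 0.9956 for the other 7, so the main results are given with and without it. The wild-type arrays were all on one slide and the mutant arrays all on another, and slide and genotype cannot be told apart. Sox9, the deleted gene, read 1.77, 1.90, 1.87 and 1.77 in the wild-type pools and 0.59, 0.40, 0.52 and 0.47 in the mutant pools. It fell by 1.33 on the log2 scale (SE 0.07, adjusted p = 7.96e-04, limma with Benjamini-Hochberg adjustment), to 39.8% of wild-type. A second Sox9 probe differed by -2.51 and another, dim probe by 0.63, or by 0.23 without mutant replicate 2. Among all features, 668 were called lower in the mutant and 410 higher at an adjusted p under 0.05.

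Most replication and mitosis genes did not pass the test of genotype. Of the 40 genes, 1 was called lower (Mcm3) and 0 higher, where the background over all features was 3.46% called lower and 2.12% called higher. The Mcm3 call is that of its brighter probe, and a second Mcm3 probe, described below, was not called. An unadjusted p under 0.05 (limma) was reached by 10 genes with a lower mutant mean and 0 with a higher one, against 15.6% and 9.96% of all features. Of these 10, 8 were among the 22 replication genes and 2 among the 18 mitosis genes. In 6 genes, Mcm3, Mcm6, Mcm10, Fen1, Cdc20 and Ube2c, each of the 4 mutant values was under the lowest wild-type value, and in 0 genes each was over the highest, where the background was 15.2% and 10.6%. Without mutant replicate 2, 3 of 40 were called lower (Mcm3, Mcm6 and Fen1) and 0 higher, against 10.6% and 6.76% of all features. The share called is close to the background in both fits. In tissue RNA of this kind, fewer cells of a type and less RNA per cell cannot be told apart.

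The mutant mean was below the wild-type mean in 31 of the 40 genes, with a median difference of -0.12, where 50.7% of all features lay below 0 and their median was -0.01. This lean to lower values was not the same under every scaling. The median differences of replication and mitosis genes, relative to the median of all features, were -0.16 and -0.08 as reported, but 0.06 and 0.10 with normexp background correction, 0.04 and 0.08 after quantile normalization, and 0.02 and 0.04 in the authors' series table. It also went with brightness: 32 of the 40 genes lay in the brightest of 4 equal parts of all features, where the median difference of all 4833 features was -0.12 and 77.7% lay below 0. The other 8 genes lay in the next part, with a median of -0.05 over all its features. In the dimmest part the median over all features was 0.40. Without mutant replicate 2 the medians of the brightest and dimmest parts were -0.05 and -0.03, and the median of the 40 genes was -0.07. In that fit 30 of the 40 genes lay below 0, against 65.2% of the brightest part and 55.8% of all features. The cutting by brightness was chosen after the data were seen.

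**Figure D1:**
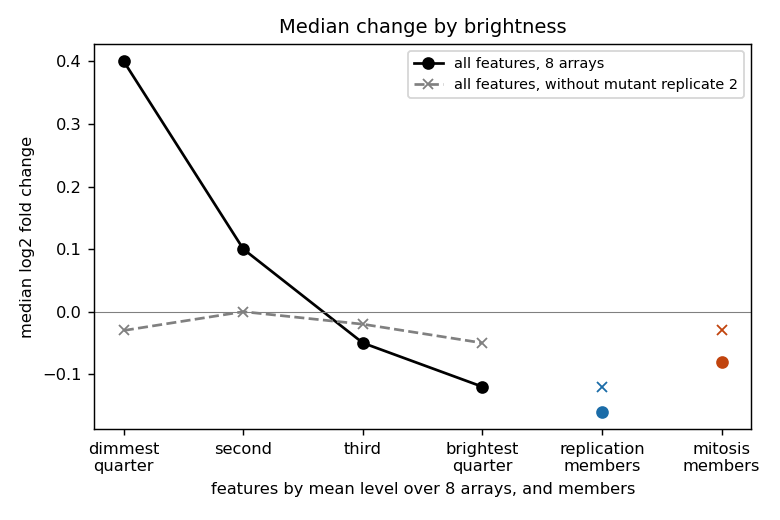
Median log2 difference (mutant minus wild-type, vertical axis) of all features in 4 equal parts by mean level, from dimmest to brightest, and of the replication and mitosis genes; circles use 8 arrays and crosses leave out mutant replicate 2. With 8 arrays the median ran from 0.40 in the dimmest part to -0.12 in the brightest, next to -0.16 for replication and -0.08 for mitosis genes.

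The median of the replication genes lay below that of the mitosis genes. The median difference was -0.16 over the 22 replication genes, 19 of them below 0, and -0.08 over the 18 mitosis genes, 12 of them below 0, a gap between medians of -0.08. Without mutant replicate 2 the medians were -0.12 and -0.03 and the gap -0.09. The gap can also be read within each array, as the median deviation of replication genes from their wild-type means less that of mitosis genes. It was 0.02, 0.00, 0.01 and -0.01 in the wild-type pools and -0.08, -0.10, -0.08 and -0.10 in the mutant pools. Each mutant value was under the lowest wild-type value, mutant replicate 2 among them. Since the genes were chosen by name, this gap is a description and carries no test, and it was smaller (-0.02) in the authors' series table. The larger lists of other genes, given below, did not show a gap of this size. Their medians were -0.03 for 48 replication and -0.02 for 59 mitosis genes. Without mutant replicate 2 they were -0.02 and -0.03, in the reverse order.

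The pools within a genotype were not interchangeable. The median deviation of the replication genes from their wild-type means was 0.05, 0.00, -0.05 and 0.02 in the wild-type pools and 0.01, -0.30, -0.20 and -0.16 in the mutant pools. For the mitosis genes it was 0.03, 0.00, -0.06 and 0.03 in the wild-type pools and 0.09, -0.21, -0.13 and -0.06 in the mutant pools. Mutant replicate 1 was therefore at the wild-type level for replication genes and above it for mitosis genes, and it had the highest of the 4 mutant values in 39 of the 40 genes. The share of all features with this order was not counted. In the brightest of the 4 parts, the median deviations over all features were -0.04, -0.31, -0.07 and -0.05 in mutant replicates 1 to 4, so mutant replicate 1 was the highest there too. Mutant replicate 2 had the lowest of all 8 values in 26 genes, 14 of replication and 12 of mitosis, while it was lowest of 8 in 38.0% of all features. Over all features, its median deviation was -0.31 in the brightest of the 4 parts and 1.74 in the dimmest. Of the 40 genes, 32 lay in that brightest part. Without mutant replicate 1 the class medians were -0.22 and -0.13.

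**Figure D2:**
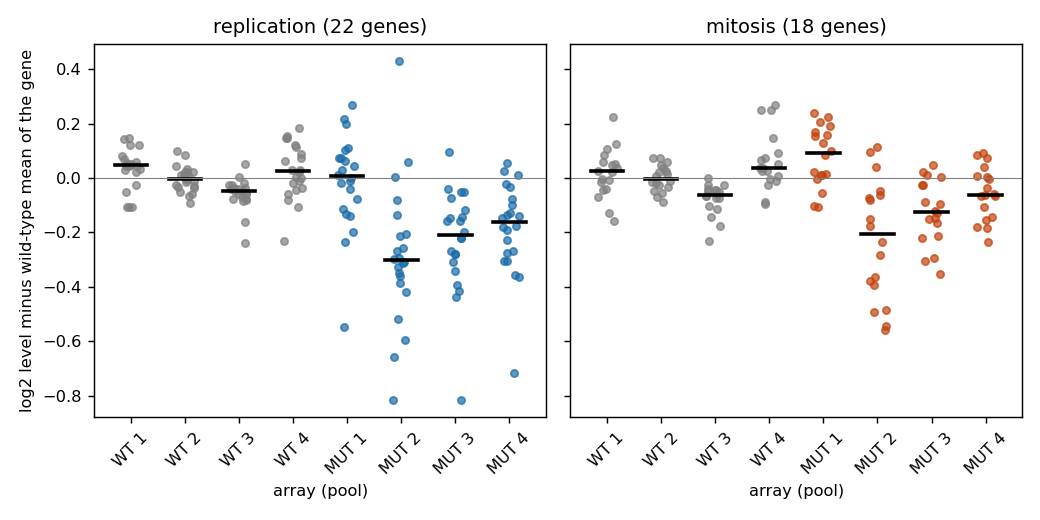
Log2 level of each gene minus its wild-type mean (vertical axis) on each of the 8 arrays, for 22 replication genes (left) and 18 mitosis genes (right); each point is 1 gene and bars are medians. Mutant replicate 1 has medians of 0.01 and 0.09, and mutant replicate 2 the lowest medians, -0.30 and -0.21.

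Among the replicative helicase subunits, Mcm3 was called lower at the brighter of its probes. Its brightest probe (chr1:20788189-20788248, minus strand, mm8) read 4.22, 4.15, 4.19 and 4.19 in the wild-type pools and 3.64, 3.37, 3.37 and 3.47 in the mutant pools. The wild-type pools were nearly alike, every mutant pool lay well below them, and mutant replicate 1 was the nearest. The mean went from 4.19 ± 0.03 (SD, n = 4) to 3.46 ± 0.13 (SD, n = 4), a difference of -0.73 (SE 0.08, 95% interval -0.91 to -0.55), or 60.3% of wild-type (adjusted p = 0.00467, limma). The difference was -0.70 when mutant replicate 2 was left out (adjusted p = 0.00240, limma). The settings that ended the call included normexp background correction (-0.62, adjusted p = 0.180, limma), centring on the median (-1.13, adjusted p = 0.354, limma) and the mean of both Mcm3 probes (-0.36, adjusted p = 0.0603, limma).

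The second Mcm3 probe gave another answer. It is annotated to the RefSeq transcript of Mcm3 (chr1:20790433-20790949, minus strand, mm8, a span that is longer than the probe), while the brighter probe carries no RefSeq transcript in its annotation, and their targets are 2185 bases apart on the genome. Relative to its own wild-type mean of 1.79, the second probe read 0.09, 0.04, -0.07 and -0.06 in the wild-type pools and 0.21, -0.12, -0.04 and 0.00 in the mutant pools. The genotypes overlapped, with mutant pools both highest and lowest. Its mean was 1.79 ± 0.08 (SD, n = 4) in wild-type and 1.81 ± 0.14 (SD, n = 4) in mutant, a difference of 0.01 (adjusted p = 0.935, limma). The difference between both probes within an array was 2.34, 2.32, 2.47 and 2.46 in the wild-type pools and 1.64, 1.69, 1.61 and 1.68 in the mutant pools. All mutant values lay below all wild-type values, mutant replicate 2 among them, and the means differed by -0.74. This comparison was chosen after the values were seen and restates the difference between the probes, so it carries no test. Every other Mcm3 value given here is that of the brighter probe.

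Mcm6 was next among the helicase genes. Its probe (chr1:130159147-130159206, minus strand, mm8) read 5.33, 5.42, 5.41 and 5.58 in the wild-type pools and 5.20, 4.84, 5.04 and 5.13 in the mutant pools. The highest mutant pool lay below the lowest wild-type pool. The mean was 5.44 ± 0.10 (SD, n = 4) in wild-type and 5.05 ± 0.15 (SD, n = 4) in mutant, a difference of -0.39 (SE 0.10, 95% interval -0.61 to -0.16) that missed the threshold (adjusted p = 0.0641, limma). It passed when mutant replicate 2 was left out (-0.31, adjusted p = 0.0304, limma). The other 4 subunits of the ring had smaller differences: -0.09 for Mcm2, -0.17 for Mcm4, -0.11 for Mcm5 and -0.16 for Mcm7, with adjusted p-values of 0.223 to 0.481 (limma). In each of them mutant replicate 1 lay within the range of the wild-type pools, and the 95% intervals reached from -0.34 at the lowest to 0.09 at the highest. Of the 6 ring subunits, 1 was called lower, against 3.46% of all features. All 6 had a mutant mean below the wild-type mean. All 6 also lay in the brightest of the 4 parts, where 77.7% of features were below 0.

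The genes of origin licensing and firing had mean differences of -0.28 for Mcm10, -0.26 for Cdc6 and -0.12 for Cdt1, and 0 of 3 were called. Mcm10, which activates the loaded helicase, read 1.75, 1.67, 1.62 and 1.78 in the wild-type pools and 1.59, 1.41, 1.29 and 1.40 in the mutant pools (chr2:4908071-4908130, minus strand, mm8). The groups did not overlap, although mutant replicate 1 came close to the lowest wild-type pool, and the test was not passed (SE 0.08, adjusted p = 0.0892, limma). Cdc6, which loads the helicase, read 0.48, 0.32, 0.17 and 0.36 against 0.20, 0.12, -0.01 and -0.03 (adjusted p = 0.130, limma), with mutant replicate 1 above the lowest wild-type pool. A second, dimmer Cdc6 probe differed by 0.09. Cdt1, the partner of Cdc6 in loading, had an adjusted p of 0.445 (limma).

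Among the polymerases, the clamp and its loader, 0 of 7 genes were called. Pcna, the sliding clamp, read 4.65, 4.62, 4.54 and 4.59 in wild-type and 4.56, 4.18, 4.32 and 4.41 in mutant. Mutant replicate 1 was again inside the wild-type range, and the difference of -0.23 did not pass (95% interval -0.44 to -0.02, adjusted p = 0.161, limma). Pola1, the catalytic subunit of polymerase alpha, differed by -0.26 (adjusted p = 0.143, limma), with 1 low wild-type pool, and its partner primase subunit Prim1 by -0.10. Pole, the catalytic subunit of the leading-strand polymerase epsilon, differed by 0.07. The clamp loader subunits Rfc3, Rfc4 and Rfc5 differed by 0.15, -0.10 and -0.18. The Rfc3 and Rfc4 differences were 0.05 and 0.00 when mutant replicate 2 was left out.

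Fen1, the nuclease that trims the flaps of lagging-strand fragments, had the largest difference of the replication genes after Mcm3. It read 2.66, 2.53, 2.47 and 2.41 in the wild-type pools and 2.32, 1.86, 2.08 and 2.16 in the mutant pools (chr19:10266730-10266789, minus strand, mm8). No mutant pool reached the lowest wild-type pool. The mean was 2.52 ± 0.11 (SD, n = 4) in wild-type and 2.11 ± 0.19 (SD, n = 4) in mutant, a difference of -0.41 (SE 0.11, 95% interval -0.67 to -0.15) with an adjusted p of 0.0772 (limma), and -0.33 without mutant replicate 2 (adjusted p = 0.0410, limma). Lig1, the ligase that seals the fragments FEN1 has trimmed, differed by 0.09 (95% interval -0.09 to 0.28), and Uhrf1, which carries maintenance methylation to new DNA, by -0.03 (95% interval -0.19 to 0.13). The ribonucleotide reductase subunits Rrm1 and Rrm2 differed by -0.23 and -0.27, and thymidylate synthase, Tyms, by -0.11, and 0 of these 3 nucleotide supply genes were called. A second Tyms probe differed by -0.20.

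Of the 18 mitosis genes, 0 were called in either direction, where 3.46% of all features were called lower and 2.12% higher. An unadjusted p under 0.05 (limma) was reached by 2, both with a lower mutant mean, against 15.6% of all features. The smallest adjusted p was 0.122 (limma), that of Cdc20, the activator of the anaphase-promoting complex. Cdc20 read 4.65, 4.58, 4.59 and 4.64 in the wild-type pools and 4.51, 4.07, 4.32 and 4.38 in the mutant pools (chr4:117930863-117930922, minus strand, mm8). The groups did not overlap, and mutant replicate 2 was the lowest by a wide margin. The difference was -0.30 (SE 0.10), and -0.21 without that pool (adjusted p = 0.0567, limma). Ube2c, the ubiquitin-conjugating enzyme of the same complex, read 3.04, 3.07, 3.00 and 3.07 against 2.99, 2.76, 2.95 and 2.98 (chr2:164463721-164463780, plus strand, mm8). The groups were barely separate, and the difference was -0.13 (adjusted p = 0.293, limma).

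The cyclins Ccna2, Ccnb1 and Ccnb2, which drive entry into mitosis with their kinase CDK1, differed by -0.21, -0.10 and -0.28, the last with an adjusted p of 0.136 (limma). For the mitotic kinases the differences were -0.14 for Aurka, -0.10 for Aurkb and -0.23 for Plk1, and for survivin, Birc5, the partner of Aurora B, -0.21. Leaving out mutant replicate 2 moved Ccna2 to -0.12, Ccnb1 to -0.06, Aurka to -0.07, Aurkb to -0.01 and Plk1 to -0.13. The spindle checkpoint genes Bub1 and Bub1b differed by 0.10 and 0.02. Genes of the chromosome and spindle lay between -0.07 and 0.07: Cenpa, the centromeric histone, differed by -0.01, the kinesins Cenpe and Kif11 by -0.06 and 0.07, and Nusap1, which bundles spindle microtubules, by -0.07. Dimmer probes of these genes differed from the brightest ones. For Cenpe they gave 0.22 and 0.71, each with every mutant pool above every wild-type pool (adjusted p = 0.108 and 0.247 over all probes, limma). For Kif11 they gave 1.43 and 0.45, the first also with every mutant pool above every wild-type pool (adjusted p = 0.312 over all probes, limma). That first probe moved to 0.55 without mutant replicate 2 (adjusted p = 0.0102 over all probes, limma). For Nusap1 the dimmer probe gave -0.24, and -0.71 without that pool (adjusted p = 0.0237 over all probes, limma). The first Kif11 probe and this Nusap1 probe had wild-type means of -5.02 and -3.41, levels of the dimmest of the 4 parts (-7.02 to -3.33). Over all features of that part the median difference was 0.40, and -0.03 without mutant replicate 2. The fit without mutant replicate 2 called 10.6% of all features lower and 6.76% higher. At their brightest probes all of these cyclin, kinase, checkpoint and spindle genes had adjusted p-values between 0.136 and 0.942 (limma), and in each the pools of both genotypes overlapped.

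Mki67, Top2a and Foxm1 complete the set, and the differences at their brightest probes were above 0. Mki67, which encodes the Ki-67 antigen, read 4.71, 4.65, 4.56 and 4.73 in the wild-type pools and 4.83, 4.60, 4.71 and 4.67 in the mutant pools. The ranges overlapped, with the highest value in mutant replicate 1. The difference was 0.04 (95% interval -0.14 to 0.21), 0.15 at a second probe and 0.20 in the authors' series table. Top2a, the topoisomerase that untangles sister chromatids, read 1.97, 1.96, 1.82 and 1.80 against 2.08, 1.84, 1.90 and 1.97. It differed by 0.06 (95% interval -0.12 to 0.24), and at its dimmer probes by 0.44 and 0.97, or 0.38 and 0.37 without mutant replicate 2, with no adjusted p under the threshold. Foxm1, the transcription factor of the mitotic programme, differed by 0.09 (95% interval -0.07 to 0.25). Over the 39 genes other than Mcm3 the 95% intervals had a median half-width of 0.21 on the log2 scale, and the bound farthest from 0 was 0.67 in size.

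**Figure D3:**
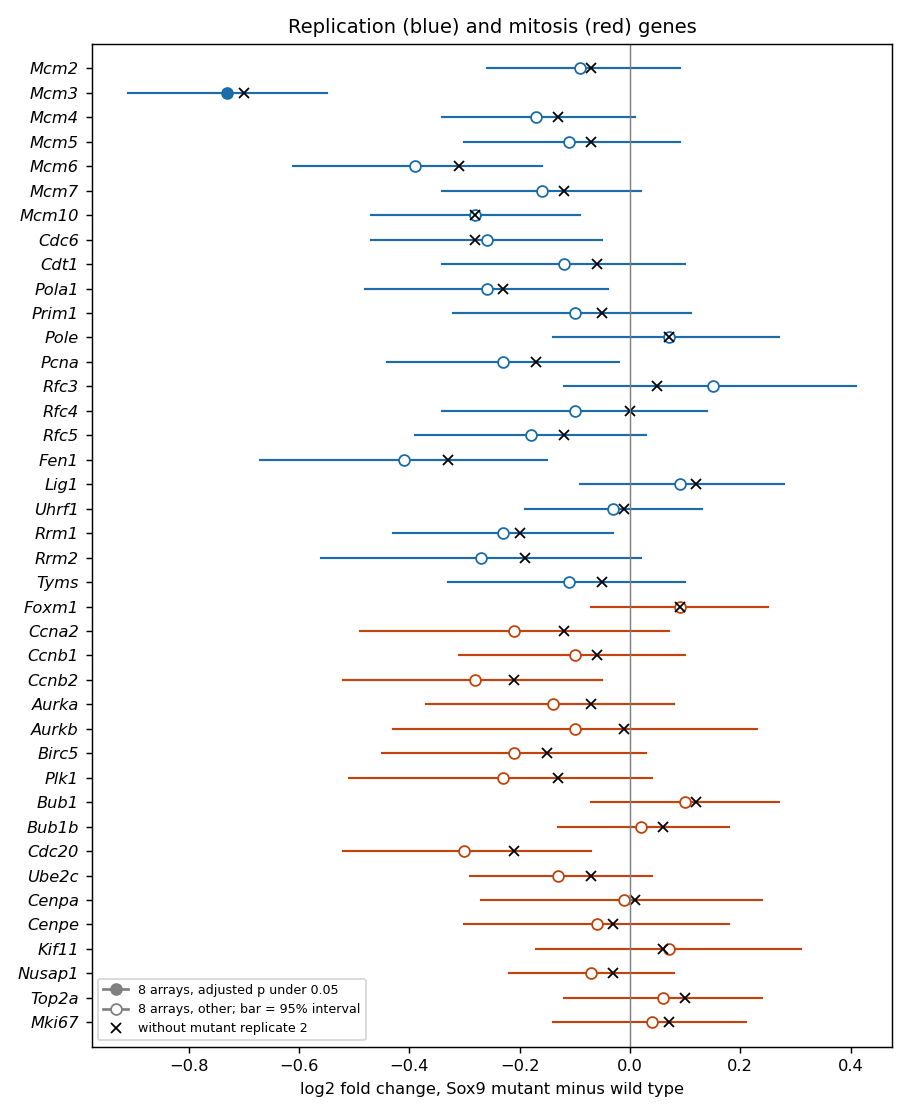
Log2 difference, mutant minus wild-type (horizontal axis), of the 22 replication genes (blue) and 18 mitosis genes (red); circles are differences over 8 arrays with 95% intervals as bars, the filled circle has an adjusted p under 0.05 (limma), and crosses leave out mutant replicate 2. Mcm3 lies at -0.73, with every other gene between -0.41 and 0.15.

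Further genes of the same pathways were read for comparison, beside 3.46% of all features called lower and 2.12% called higher. Of 48 other replication genes, 1 was called lower and 0 higher, with a median difference of -0.03. The called gene was Dut, which removes dUTP from the nucleotide pool. It read 4.02, 3.99, 3.96 and 4.03 in wild-type and 3.80, 3.50, 3.63 and 3.68 in mutant, a difference of -0.35 (SE 0.08, adjusted p = 0.0449, limma). No pools overlapped, but the call held in 4 of 17 alternatives, and a second Dut probe differed by -0.25 (adjusted p = 0.178 over all probes, limma). Of 59 other mitosis genes, 1 was called lower and 0 higher, with a median of -0.02. It was Pttg1, securin, which holds separase in check until anaphase. Its levels were 3.48, 3.31, 3.39 and 3.45 against 2.97, 2.58, 2.68 and 2.96, which did not overlap, a difference of -0.61 (SE 0.11, adjusted p = 0.0236, limma), with the call held in 8 of 17 alternatives.

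Among 21 transcription regulators of the cell cycle, 1 was called lower and 0 higher, with a median of -0.13. Rb1, the retinoblastoma protein gene, read 0.03, 0.01, 0.08 and 0.11 in the wild-type pools and -0.59, -0.84, -0.48 and -0.49 in the mutant pools. The genotypes were well apart, and the difference was -0.66 (SE 0.09, adjusted p = 0.0117, limma), called in 12 of 16 alternatives. Without mutant replicate 2, Mycn, a MYC family factor, was called higher (0.46, adjusted p = 0.00938, limma), while with all arrays it differed by 0.39 (adjusted p = 0.0585, limma). The fit without mutant replicate 2 called 10.6% of all features lower and 6.76% higher. Of the 48 other replication genes it called 2 lower, Gins4 and Dut. Of the 59 other mitosis genes it called Pttg1 and Ckap2l lower and Ttk, Kif2c and Nek2 higher.

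Markers of the cell types in the dissected tissue were read beside these genes. All 8 epithelial, 12 mesenchymal and 8 endothelial markers were well above background on all 8 arrays. Their summed signal, in multiples of the array's 75th percentile, was 343 to 371 in wild-type and 294 to 390 in mutant pools for the epithelium, 388 to 461 and 306 to 404 for mesenchyme, and 21.8 to 24.6 and 20.2 to 24.5 for endothelium. Their median differences were -0.13, -0.08 and 0.01, with 1 epithelial marker lower (Pdx1) and 1 mesenchymal marker higher (Nkx3-2). Markers of endocrine precursors, cells that have mostly left the cycle, summed to 21.5 to 22.4 in wild-type and 7.01 to 15.2 in mutant pools, and 5 of 7 were called lower, among them Neurog3 (-1.89). Chga, the brightest of the 7, was not called with all 8 arrays (-0.83, adjusted p = 0.133, limma). The brightest marker weighs most in such a sum, and for the epithelium it was Cpa1 (-0.21). Schwann cell and neuron markers, with 10 of 10 above background, summed to 11.3 to 14.4 and 8.12 to 9.71, with 2 of 10 called lower. Of 7 myeloid and lymphoid markers, 6 were above background on all arrays and 0 were called, with sums of 21.5 to 28.3 and 16.0 to 23.2. Of 8 erythroid markers 7 were tested and 5 were above background on all arrays, with 2 called higher. The spot of Hba-a1, the brightest of them, was left out as an outlier on mutant replicate 1, so its fit used the other 7 arrays, and the sums of the remaining 6 markers were 2.71 to 4.55 and 4.90 to 11.9. When mutant replicate 2 was left out, the mutant sums were 363 to 390 for epithelium, 366 to 404 for mesenchyme and 23.7 to 24.5 for endothelium. They were 12.3 to 15.2 for endocrine precursors, 19.2 to 23.2 for myeloid and lymphoid cells and 4.90 to 8.43 for erythroid cells. That fit called 10.6% of all features lower and 6.76% higher. It called 7 of 7 endocrine precursor markers lower, and of the Schwann cell and neuron markers Sox10, S100b and Foxd3. In the epithelium Pdx1 was called lower, and Krt8 (0.31) and Krt18 (0.41) higher. In mesenchyme Lum (-0.36) was called lower, and Twist1 (0.52) and Nkx3-2 higher. Hbb-y and Hba-x were again called higher. The part of these cell types in the replication and mitosis values was not tested.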

How the data were processed

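Total RNA from 8 pools of pancreatic epithelium was labelled with Cy3 and hybridised to one-colour Agilent arrays of design 014868. The deposited scanner files hold intensity values made, per the file headers, with Agilent Feature Extraction 9.5.3.1, whose processed signal has background subtracted and spatial trends removed, with no scaling between arrays. The submitters' processing notes name limma, with its version and steps not given in the sources used here. The authors' series table, also intensity, followed the raw spot signal with a Pearson r of at least 0.9821 over 40928 probes, and its log2 medians were 8.30 to 8.32 on 7 arrays and 8.47 on mutant replicate 2. It is thus on a linear scale and not centred per gene, while its normalization is not known here. It served as an alternative.

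Control spots and outlier spots were left out, replicate spots were averaged as log2 values, and each array was centred on its own 75th percentile. Probes well above background on at least 4 of 8 arrays were kept (29462 of 41174), and the probe with the highest mean stood for a gene. Names were matched to RefSeq (GRCm38.p6), used for names and promoters only: 24490 probes by accession, 6234 by symbol, 2391 by synonym and 8059 not at all. Probe positions are those of the files, on mm8, and the place of a probe within its transcript was not analysed here. Genotype was tested over all features by the two-sided moderated test of limma 3.58.1 (lmFit, then eBayes) under R 4.3.3 (files read by data.table, version 1.17.8), with Benjamini-Hochberg adjustment and a threshold of 0.05. The script was tested on simulated data. The number of arrays limits the precision.

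The genes and lists were chosen with earlier results of these data known. Full values were given, by rule, for genes called with or without mutant replicate 2 or with no overlap between genotypes, and other lists named up to 6 called genes. Alternatives were normexp background correction with an offset of 50, median centring, quantile normalization, no filter or a filter on all 8 arrays, the mean of a gene's probes, array weights, the series table, a replicate block and leaving out each array. The next brightest probe and the parts by brightness were added after the data were seen. Same-numbered pools of both genotypes deviated from their group means with correlations of 0.02, -0.02, 0.05 and 0.13, so the main fit did not take the numbers as pairs. Such correlations cannot show that the pools were unpaired. The replicate block is the alternative that takes same-numbered pools together.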

Additional observations from a re-analysis of the deposited data

Results flagged for a closer look

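In 4 of 94 groups of 4 pools that were examined, 1 pool stood apart from the rest of its group, with a gap to its nearest neighbour above Dixon's critical share of the whole range. Chance marks about 1 in 20 groups in this way. Mcm2 was 2.69 in mutant replicate 1, where the next mutant pool was 2.51. Rrm1 was 3.59 in the same pool, with the next at 3.33. Pola1 was 1.38 in wild-type replicate 4, with the next at 1.66, and Tyms was 3.83 in that pool, with the next at 3.64. None of these 4 genes was called at an adjusted p under 0.05 (limma). The cause of these single values was not tested.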

How the results depend on the processing

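The count of features called (1078) was 78 with normexp, 45 with median centring, 400 with no filter, 711 with the mean of a gene's probes, 4785 with array weights, 2180 in the series table and 144 with the replicate block. It was 361 to 3356 when arrays were left out one at a time, the highest without mutant replicate 2, and 361, 395, 365 and 535 without wild-type replicates 1 to 4, and 427, 479 and 464 without mutant replicates 1, 3 and 4. The share of calls that were lower was 62.0%, against 79.5% with normexp, 53.3% with median centring and 52.1% with the replicate block. The count of the 40 genes called lower (1) was 0 with normexp, median centring, the mean of probes, the replicate block and the next brightest probe, 8 with array weights (Ccnb2, Cdc20, Cdc6, Fen1, Mcm10, Mcm3, Mcm6 and Pola1, where 14.6% of all features were lower), and 1 to 3 when arrays were left out. The count called higher was 0 in every alternative run. With the replicate block Mcm3 was -0.73 (adjusted p = 0.0515, limma), and with the next brightest probe it reversed to 0.01. Of 17 other settings Mcm3 was called in 13, with adjusted p-values of 5.22e-04 to 0.354 (limma), and Sox9 in 16.

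The replication median (-0.16) was -0.04 with normexp, -0.56 with median centring, -0.02 with quantile normalization and 0.00 in the series table, and -0.22 to -0.12 when arrays were left out. The mitosis median (-0.08) was 0.00 with normexp, -0.48 with median centring, -0.02 with array weights, 0.03 with quantile normalization and 0.02 in the series table, and -0.13 to -0.03 when arrays were left out. Median centring moved the median of all features to -0.40, against -0.01, and relative to it the classes kept -0.16 and -0.08. With no filter that median was 0.15. The gap between the class medians (-0.08) was -0.04 with normexp, -0.05 with quantile normalization and with the mean of probes, -0.12 with array weights and -0.02 in the series table, and -0.14 to -0.06 when arrays were left out, -0.14 without wild-type replicate 4. It was below 0 in each alternative run. The causes of these shifts were not tested.

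With 4 pools a genotype, on separate slides, small differences and slide effects are beyond what these arrays can separate. All 40 genes had signal well above background, but the part of dimness and background in their differences was not tested.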
